A study of Mus musculus with 4 samples.

Results

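NFIC is a transcription factor of the nuclear factor I (NFI) family, and the NFIC peaks of the mouse pancreas assigned to *Xylt1*, *Nckap5*, *Hpcal1* and *Maml3* are described here. These 4 genes were chosen by the number of peaks that the deposited annotation assigns to them, and together they hold 59 of the 15824 peaks of the list, whereas the list names 9086 genes in all. The libraries are 3 NFIC ChIP libraries and 1 library of input DNA, all from pancreas of wild-type mice of a mixed strain aged 8 to 12 weeks. Chromatin of the ChIP libraries was precipitated with an antibody against NFIC, no antibody is given for the input, and whether animals were pooled is not given in the sources used here. The authors deposited a single merged list of peaks on the mouse build mm10, with no value for a single library, so the replicate error is unknown, no comparison between libraries is possible, and the depth is unknown. The list holds no expression values, so the tissue label was not checked against marker genes. Every peak is 173 bp wide. Each has a deposited score on a scale that is not named in the sources used here.

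NFI proteins bind DNA as dimers, and their full site is a palindrome with an arm for each subunit. They are known to act at promoters and at distal elements in many epithelial tissues, and the acinar cell, which makes the digestive enzymes, is the main cell type of the pancreas. *Xylt1* codes for a xylosyltransferase that starts glycosaminoglycan chains on the core proteins of proteoglycans. *Nckap5* codes for a protein named for its association with the adaptor NCK. *Hpcal1* codes for a calcium-binding protein of the neuronal calcium sensor family, and *Maml3* for a mastermind-like coactivator of the Notch transcription complex. The annotation assigns each peak to the gene with the nearest transcription start site (TSS), whether or not the peak lies in that gene.

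The number of assigned peaks, by which the genes were chosen, was 21 for *Xylt1*, 14 for *Nckap5*, 12 for *Hpcal1* and 12 for *Maml3*. Of the genes with a peak, 7 (0.077%) had at least 12. The label of these genes as the autosomal genes with most peaks was not complete, because *Rybp* on chromosome 6 had 13 peaks. *Bcor*, with 22 peaks, lies on chromosome X. Just outside this limit, 6 genes had 11 peaks each, namely *Fut8*, *H2afy3*, *Myo10*, *Pik3r1*, *Sik1* and *Tmem131*. These numbers describe how the genes were chosen and were not tested.

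The sequences of the peak with the highest score of each gene are given on the plus strand of mm10, to show that the peak of highest score held an exact NFI site at *Maml3* only. Capitals mark the arms of an NFI full site, here defined as TGGC and GCCA with 5 bases of any kind between them and at most 1 mismatch over the 8 bases of the arms, and every copy of the single arm TTGGCA or its reverse complement. The peak of *Xylt1*, in intron 1, lies at chr7:117452320-117452492 and scored 11.4. That of *Nckap5*, in intron 2, lies at chr1:126661990-126662162 and scored 14.1. That of *Hpcal1*, upstream of the gene, lies at chr12:17664336-17664508 and scored 21.7. That of *Maml3*, in intron 1, lies at chr3:52088432-52088604 and scored 18.1.
Xylt1: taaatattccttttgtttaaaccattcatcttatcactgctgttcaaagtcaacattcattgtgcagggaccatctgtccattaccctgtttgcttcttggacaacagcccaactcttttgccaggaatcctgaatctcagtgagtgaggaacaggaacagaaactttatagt
Nckap5: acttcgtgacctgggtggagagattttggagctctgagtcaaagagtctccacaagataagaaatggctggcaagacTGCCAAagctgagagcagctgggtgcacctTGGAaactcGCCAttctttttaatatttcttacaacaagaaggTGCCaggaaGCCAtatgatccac
Hpcal1: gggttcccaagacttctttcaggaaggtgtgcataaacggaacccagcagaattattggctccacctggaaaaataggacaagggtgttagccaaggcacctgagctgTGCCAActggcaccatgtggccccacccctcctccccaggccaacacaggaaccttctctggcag
Maml3: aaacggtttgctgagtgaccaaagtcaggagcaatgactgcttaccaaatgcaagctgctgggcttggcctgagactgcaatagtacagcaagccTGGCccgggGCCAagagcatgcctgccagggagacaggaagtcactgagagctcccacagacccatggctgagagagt

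In the *Maml3* peak the exact site lay 15 bp from the peak centre. The *Nckap5* peak held 2 full sites with 1 mismatch each and a single arm, and lies on an RLTR17 element of the ERVK class. The *Hpcal1* peak, which had the highest score of all 59, held a single arm and no full site, and the *Xylt1* peak held neither.

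Exact full sites were found in 9 of the 59 peaks, and their sites are given with 5 flanking bases on each side, capitals marking the arms. *Maml3* had 4 such peaks, *Xylt1* had 3, and *Nckap5* and *Hpcal1* had 1 each. The *Nckap5* peak was the only 1 of the 59 with 2 exact sites. For each site, the score of its peak and its offset from the peak centre on the plus strand follow the sequences.
Maml3, chr3:52088527-52088539: aagccTGGCccgggGCCAagagc
Maml3, chr3:52047049-52047061: agcttTGGCagcctGCCAccgat
Maml3, chr3:52180982-52180994: aagccTGGCtttggGCCAgatct
Maml3, chr3:52007055-52007067: tacacTGGCagtttGCCAgtcaa
Hpcal1, chr12:17661836-17661848: agggcTGGCatgttGCCAggcct
Nckap5, chr1:126683940-126683952: ggggcTGGCcagggGCCAattcc
Nckap5, chr1:126683982-126683994: gaaccTGGCaaaatGCCActgaa
Xylt1, chr7:117555823-117555835: agggaTGGCtgattGCCAggaat
Xylt1, chr7:117265472-117265484: cctacTGGCctgagGCCAaggaa
Xylt1, chr7:117317495-117317507: gccacTGGCaaggaGCCAacctc

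At *Maml3*, the 4 peaks with these sites scored 18.1, 16.1, 9.96 and 7.17, in the order of the list, with offsets of 15, 39, -6 and 71 bp. The *Hpcal1* peak scored 12.0, with the site at 9 bp from its centre. The *Nckap5* peak scored 9.96, with sites at -72 and -30 bp. The *Xylt1* peaks scored 8.37, 6.17 and 4.78, with offsets of 9, 44 and 16 bp. The *Maml3* peaks with an exact site included its 2 highest, whereas none of the *Xylt1* peaks with one was its highest. The lower 2 of the *Xylt1* peaks lay in LTR elements, RMER19A and ORR1E, upstream of the gene.

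*Xylt1* lies on chromosome 7 from 117380979 to 117667630, on the plus strand, and its body spans 287 kb. Of its 21 peaks, 17 lay in the gene, 3 upstream and 1 downstream. At the TSS, a peak at 32 bp in the promoter-TSS class and a peak at 438 bp in exon 1 had a score of 5.18 each, and their centres were 0.406 kb apart. Both were rich in G and C, at 77.0% and 81.5% over 200 bp, and neither held an NFI full site. The peaks then continued along the gene. Intron 1, of 94.0 kb, held 5 peaks with scores from 4.38 to 11.4, at 13.1, 25.6, 40.5, 52.8 and 71.4 kb from the TSS. Intron 2, of 73.1 kb, held 5 with scores from 4.18 to 6.77, and intron 3, of 42.8 kb, held 3 with scores from 4.78 to 8.37. Introns 5 and 6 held 1 peak each, with scores of 5.78 and 7.77. The longest stretch of the body without a peak was 44.7 kb, or 15.6% of its length. The 3 upstream peaks, at -126, -116 and -63.5 kb, lay in the span of the long non-coding RNA gene *Gm39075* in the RefSeq annotation, with scores of 4.38, 6.17 and 4.78. The downstream peak, at 315 kb from the TSS, scored 3.98, the lowest value of the gene.

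*Xylt1* stands in a region with few other genes. The nearest protein-coding genes of the RefSeq annotation are *Nucb2*, which codes for a calcium-binding protein and lies 840 kb away, and *Rps15a*, which codes for a ribosomal protein and lies 437 kb away. The bases nearer to a TSS of *Xylt1* than to that of any other gene, counted with RefSeq transcripts and called its territory below, summed to 806 kb, against a median of 41.3 kb over autosomal protein-coding genes. *Nucb2* had 2 peaks, with scores of 3.98 and 17.7, and *Rps15a* had none.

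*Nckap5* lies on chromosome 1 from 125913636 to 126830796, on the minus strand, and with 917 kb it is the longest of the 4 genes. Of its 14 peaks, 12 lay in the gene and 2 upstream. All 12 were in the 5′ part of the gene, and the 530 kb from the innermost peak to the 3′ end, or 57.8% of the body, held no peak. The peak in the 5′ UTR, at 147 bp from the TSS, scored 9.16, and held a full site with 1 mismatch. The next, at 1.40 kb in intron 1, scored 7.57 and held the single arm but no full site. Intron 1, of 135 kb, held 3 peaks, this included, with scores from 3.98 to 8.17. Intron 2, of 167 kb, held 4 with scores from 6.17 to 14.1, among them the peak with the 2 exact sites. Intron 3, of 80.2 kb, held 3 with scores from 5.98 to 9.16, and intron 4 held 1 with a score of 3.59. In the annotation, 6 peaks from intron 2 to intron 4 were measured from the start of a shorter transcript of the gene, and their distances ranged from -129 to 48.9 kb. Those at -129 and 8.13 kb overlap an exon of a RefSeq transcript other than the one whose introns are numbered here. The 2 upstream peaks, at -95.1 and -97.7 kb, scored 10.8 and 6.57. The former held 2 full sites with 1 mismatch each.

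The neighbours of *Nckap5* had few peaks. *Lypd1*, a gene of the Ly6 and PLAUR domain family that lies 0.461 kb from the 3′ end of *Nckap5*, had 1 peak with a score of 3.98. *Mgat5*, which codes for an N-glycan branching enzyme and lies 374 kb away, had 1 with a score of 4.18. No peak in the body of *Nckap5* was assigned to another gene.

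*Hpcal1* lies on chromosome 12 from 17690750 to 17791944, on the plus strand, and with 101 kb it is the shortest of the 4 genes. Of its 12 peaks, 6 lay in the gene, 5 upstream and 1 downstream. The upstream peaks at -29.0, -26.4 and -24.7 kb lay within a few kb of each other and scored 12.0, 21.7 and 13.3. The peaks that scored 21.7 and 13.3 lay in the span of the long non-coding RNA gene *Gm29864*. A peak at -54.1 kb scored 8.96. The promoter peak, at -352 bp, scored 10.2, had a GC content of 74.0% and held 2 full sites with 1 mismatch each and the SP motif. All 6 peaks in the gene lay in intron 1, which at 95.1 kb makes up 94.0% of the body. They lay at 19.7, 37.0, 41.4, 44.3, 51.0 and 56.1 kb from the TSS and scored 6.77, 13.3, 7.97, 5.58, 15.1 and 14.9 in that order. The peak at 37.0 kb overlaps an exon of another RefSeq transcript, so its place in an intron holds for the annotated transcript only. The remaining peak, at 191 kb from the TSS, scored 3.98 and lay in a CpG island. It starts at 17881747, near the 5′ end of the protein-coding RefSeq gene *Gm9222*, which lies on the plus strand from 17881552. The annotation assigned no peak to *Gm9222*, and this peak is counted among those of *Hpcal1*. *Odc1*, which codes for ornithine decarboxylase of polyamine synthesis and lies 139 kb upstream, had 7 peaks, with scores from 4.58 to 18.7.

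*Maml3* lies on chromosome 3 from 51687320 to 52105319, on the minus strand, with a body of 418.0 kb. Of its 12 peaks, 9 lay in the gene and 3 upstream. All 9 were in intron 1, which at 247 kb makes up 59.0% of the body. Peaks are assigned by the nearest TSS, and the later introns lie nearer to the TSS of the neighbour *Mgst2*. That all 9 lay in intron 1 thus follows from the assignment. The peak at 2.91 kb from the TSS scored 8.17, had a GC content of 77.0% and held the SP motif but no full site. Those at 16.5 and 58.0 kb scored 18.1 and 16.1. The peaks at 64.9, 83.5, 98.0 and 104 kb scored 5.58, 7.37, 7.17 and 4.18. A pair at 213 and 215 kb, with centres 1.84 kb apart, scored 12.3 and 9.76. The upstream peaks lay at -54.8, -74.9 and -76.0 kb and scored 4.78, 7.37 and 9.96, and the GENCODE long non-coding RNA gene *Gm37202* spans all 3.

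Intron 2 of *Maml3* held 3 more peaks, with scores of 11.4, 4.38 and 5.58, which the annotation assigned to *Mgst2*, a microsomal glutathione S-transferase gene whose end lies 4.645 kb from that of *Maml3*. They were the only peaks in the bodies of the 4 genes that were assigned to another gene, and they make the number in the body of *Maml3* 12, equal to the number assigned to it. On the other side, *Foxo1*, which codes for a forkhead transcription factor and lies 163 kb away, had 3 peaks with scores from 4.18 to 6.57.

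**Figure D1:**
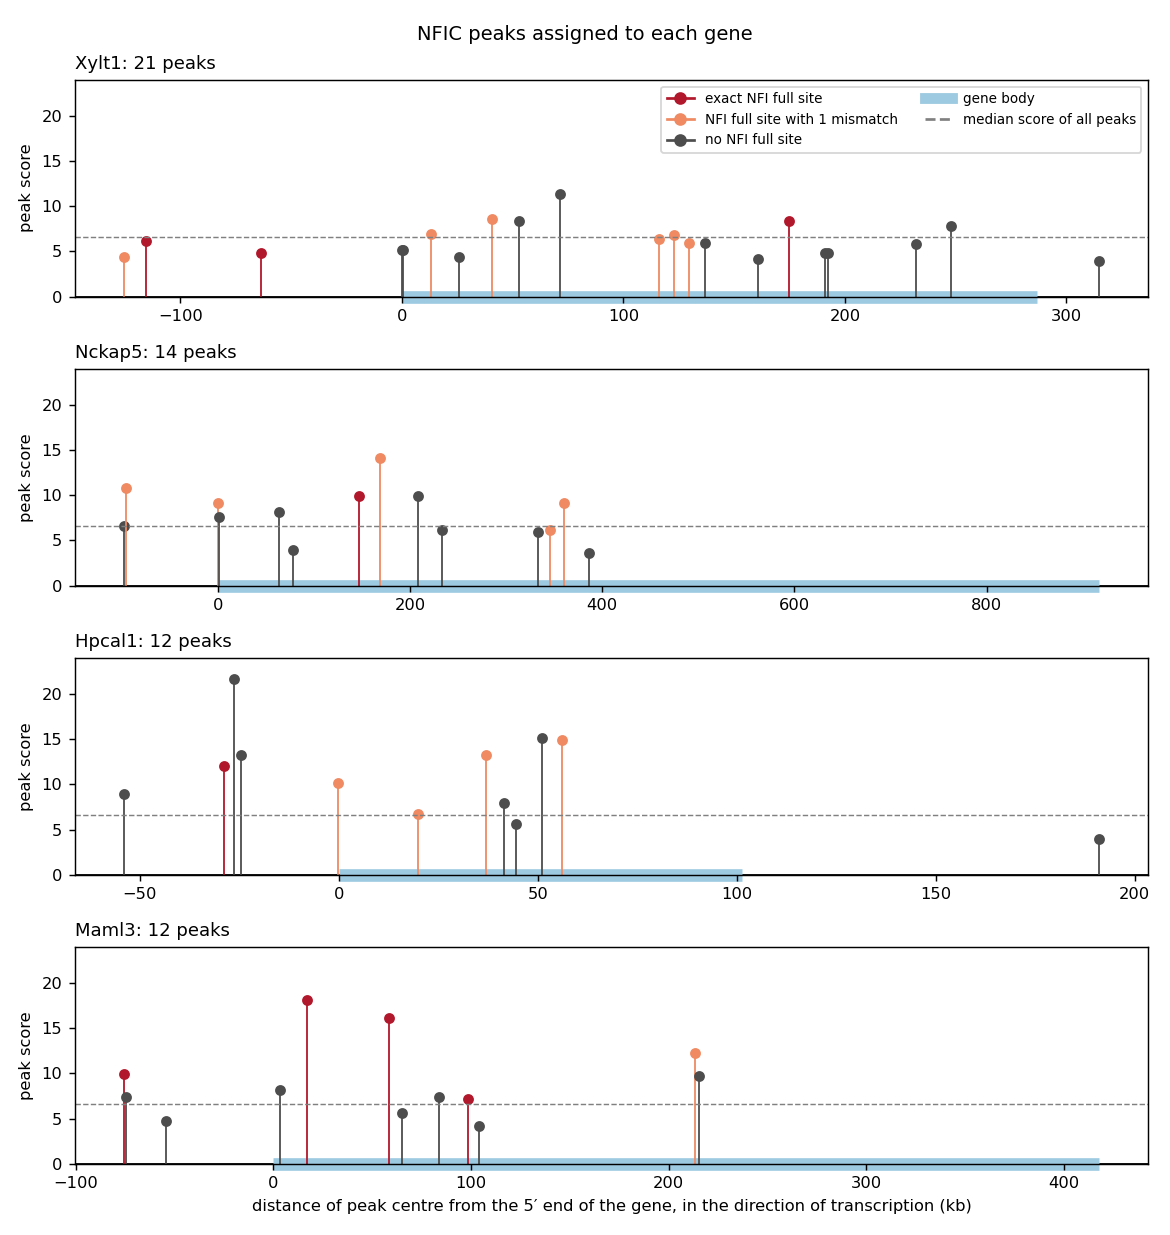
NFIC peaks assigned to the 4 genes, by the distance of the peak centre from the 5′ end of the gene in the direction of transcription (x axis, kb, with a different range in each panel) and by peak score (y axis). Each pin is 1 peak (red, exact NFI full site, orange, 1 mismatch, grey, none), the blue bar is the gene body, and the dashed line is the median score of all peaks, 6.57. The right-hand part of the *Nckap5* body holds no peak. All body peaks of *Maml3* that are assigned to it lie in its 5′ part, because its 3′ part is nearer to the TSS of *Mgst2*.

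Over the 4 genes, 44 of 59 peaks (74.6%, 95% Wilson confidence interval 62.2 to 83.9) lay in the body of the gene to which they were assigned, 13 upstream and 2 downstream. The same share over all peaks was not computed, so whether this share is unusual is not known. Intervals cover counting error only, since peaks of a locus are not replicates. By the class of the annotation, 41 peaks (69.5%, 56.9 to 79.7) were intronic, against 40.8% of all peaks, and 14 (23.7%, 14.7 to 36.0) were intergenic, against 30.6%. In 23 cases the intron was intron 1. This intron makes up 94.0% of the body of *Hpcal1* and 59.0% of that of *Maml3*, and its share over all peaks was not computed. At *Maml3* the assignment by nearest TSS gives peaks of the later introns to *Mgst2*. Of the 14 intergenic peaks, 7 had their centre within another RefSeq gene, among them the long non-coding RNA genes named above. A distance of at most 1 kb from the TSS was found for 4 peaks (6.78%), against 27.4% of all peaks, and one of over 50 kb for 38 (64.4%), against 17.9%. The median distance was 64.9 kb, against 10.4 kb over all peaks. These shares describe the loci, and genes of equal length were not compared.

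Gene length was set beside the number of peaks because a long gene has more room for them. Among 7551 autosomal protein-coding genes with an assigned peak, the number of peaks and the length of the body had a Spearman correlation of 0.21, and the number of peaks and the length of the territory one of 0.32, given as descriptions across genes that share the list. The body of *Xylt1* held 5.93 peaks per 100 kb and that of *Hpcal1* 5.93, that of *Maml3*, all 12 peaks in it included, 2.87, and that of *Nckap5* 1.31. The autosomes as a whole had 0.636 peaks per 100 kb, and the bodies of all autosomal protein-coding genes 0.955. Of 945 such genes with a body of at least 200 kb, 392 (41.5%) had no peak in the body, and their median was 1 peak, or 0.25 per 100 kb. By peaks per 100 kb, *Xylt1* stood in place 1 among these long genes, *Maml3* in place 25 and *Nckap5* in place 127, whereas *Hpcal1* is shorter than 200 kb. These places use the peaks by which the genes were chosen. With only the peaks at or above the median score, the value per 100 kb was 4.94 at *Hpcal1*, 2.44 at *Xylt1*, 1.91 at *Maml3* and 0.763 at *Nckap5*. The values above for the autosomes and for other genes count all peaks, so these filtered values cannot be set beside them. By the number of peaks in the body, *Xylt1* stood in place 3, and *Maml3* and *Nckap5* shared place 7.

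**Figure D2:**
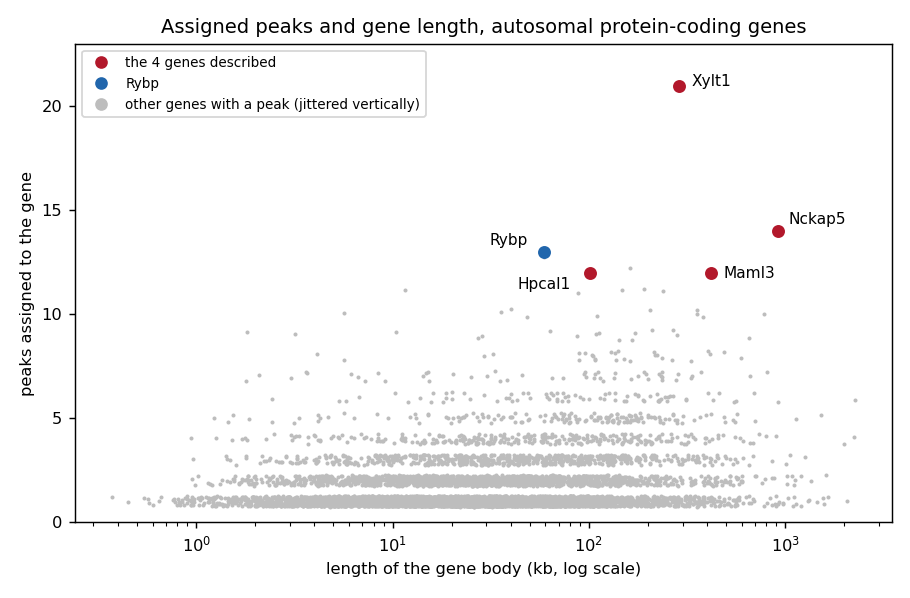
Number of assigned NFIC peaks (y axis) against the length of the gene body (x axis, kb, log scale) for autosomal protein-coding genes with at least 1 peak. *Xylt1*, *Nckap5*, *Hpcal1* and *Maml3* are red, *Rybp* is blue, and each grey point is another gene; *Xylt1*, with 21 peaks, lies 7 peaks above the next gene shown, *Nckap5*.

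Counted over the territory, the order of the genes differed. *Hpcal1* had 7.12 assigned peaks per 100 kb of a territory of 168.5 kb, *Maml3* 3.95 of 304 kb, *Xylt1* 2.61 of 806 kb and *Nckap5* 1.72 of 815 kb. *Rybp* had 3.25.

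The median distance between neighbouring peaks of a gene was shortest at *Hpcal1*. It was 6.66 kb there, against 14.4 kb at *Xylt1*, 14.5 kb at *Maml3* and 24.7 kb at *Nckap5*. With only the peaks at or above the median score, it was 39.4 kb at *Xylt1* and 51.0 kb at *Nckap5*. The median of these medians over the 406 genes with 5 or more peaks on a single chromosome was 16.5 kb, and neighbouring peaks on the autosomes, whatever their gene, were 40.4 kb apart. Distances ranged from 0.406 to 67.0 kb at *Xylt1*, from 1.25 to 99.7 kb at *Nckap5*, from 1.73 to 135 kb at *Hpcal1* and from 1.13 to 109 kb at *Maml3*. In all, 18 of 55 distances (32.7%) were under 10 kb, of which 6 were at *Xylt1*, 2 at *Nckap5*, 6 at *Hpcal1* and 4 at *Maml3*. Between neighbouring autosomal peaks the share was 3016 of 15633 (19.3%). The autosomal pairs include gaps between genes, whereas the 4 genes were chosen by their number of peaks. A higher share of short distances is thus favoured by the choice itself, and the difference was not tested. At *Xylt1*, 1 pair of peaks lay less than 1 kb apart, the pair at the TSS.

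**Figure D3:**
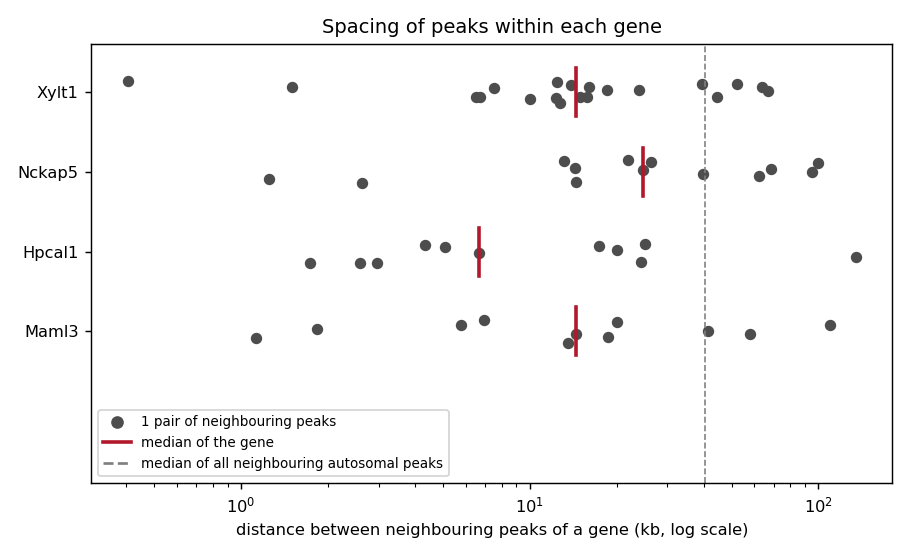
Distances between the centres of neighbouring peaks assigned to the same gene (x axis, kb, log scale) for the 4 genes (y axis). Each point is 1 pair of neighbours, and the red bar is the median of the gene. The dashed line is the median of neighbouring autosomal peaks, 40.4 kb, gaps between genes included. With all peaks counted, the medians of the 4 genes, which were chosen by their number of peaks, lie to its left, from 6.66 to 24.7 kb. Over the 406 genes with 5 or more peaks on a single chromosome, the median of their median spacings, not drawn, was 16.5 kb.

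The median and the highest peak score were lowest at *Xylt1* and highest at *Hpcal1*, whereas the lowest score of the 59 peaks was at *Nckap5*. At *Xylt1* the lowest, median and highest score were 3.98, 5.98 and 11.4, at *Nckap5* 3.59, 7.87 and 14.1, at *Maml3* 4.18, 7.77 and 18.1, and at *Hpcal1* 3.98, 11.1 and 21.7. The ranges of the 4 genes overlapped, and over all peaks the median was 6.57. Scores in the upper 2 quartiles of the list, at or above its median, were found for 10 of the 12 *Hpcal1* peaks (83.3%, 55.2 to 95.3), 9 of the 12 *Maml3* peaks (75.0%, 46.8 to 91.1) and 9 of the 14 *Nckap5* peaks (64.3%, 38.8 to 83.7). At *Xylt1* there were 7 of 21 (33.3%, 17.2 to 54.6). Over the 4 genes there were 35 of 59 (59.3%, 46.6 to 70.9), against 51.6% of all peaks.

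Among the 407 genes with 5 or more peaks, 24, *Hpcal1* included, had a median score at least that of *Hpcal1*, and 322 had one at least that of *Xylt1*. With peaks in the upper 2 quartiles alone, *Hpcal1*, with 10, had fewer than 1 autosomal gene. *Nckap5* and *Maml3*, with 9 each, had fewer than 3 autosomal genes, and *Xylt1*, with 7, had fewer than 12. *Xylt1*, the gene with most peaks of the 4, thus had the fewest in the upper 2 quartiles. The focus ratio, the share of the tags of a peak that lie as a centred peak would have them, had medians of 0.688 at *Xylt1*, 0.66 at *Nckap5*, 0.685 at *Hpcal1* and 0.706 at *Maml3*, against 0.684 over all peaks.

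**Figure D4:**
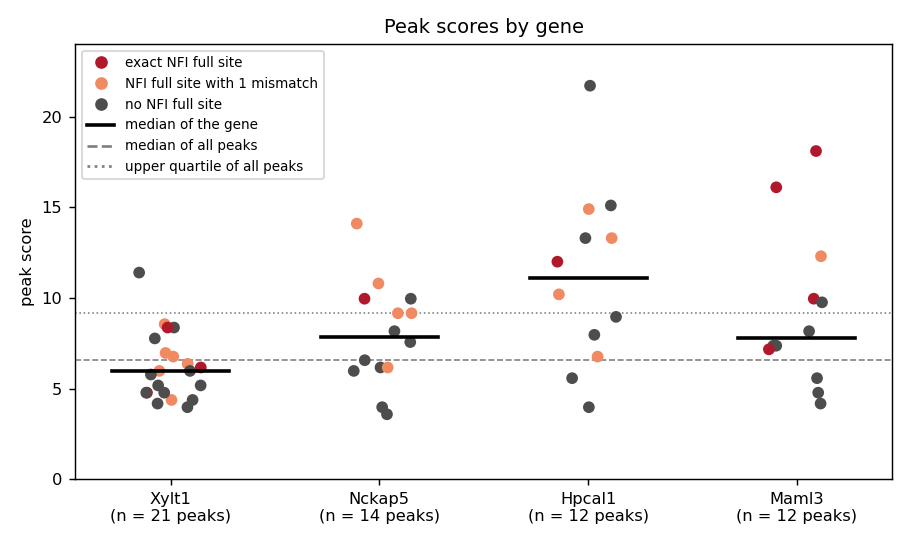
Peak score (y axis) of every peak assigned to *Xylt1*, *Nckap5*, *Hpcal1* and *Maml3* (x axis). Each point is 1 peak, coloured by its NFI full site, black bars are the medians of the genes, and the dashed and dotted lines are the median, 6.57, and the upper quartile, 9.16, of all peaks; 1 peak of *Xylt1* and 7 of *Hpcal1* reach the upper quartile.

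An NFI full site with at most 1 mismatch was present within 200 bp centred on the peak in 25 of the 59 peaks (42.4%, 30.6 to 55.1), against 51.8% of all peaks. The share was nearly equal in the 4 genes, at 9 of 21 for *Xylt1*, 6 of 14 for *Nckap5*, 5 of 12 for *Hpcal1* and 5 of 12 for *Maml3*. The exact site was present in 15.3% of the 59 (8.24 to 26.5), against 13.4% of all peaks. The site lay at most 30 bp from the peak centre in 18 of the 25 peaks that held one (72.0%), against 59.6% of all peaks with a site, and the median offset was 24 bp in both. The full site was present in 19 of 35 peaks in the upper 2 quartiles of score (54.3%, 38.2 to 69.5) and in 6 of 24 others (25.0%, 12.0 to 44.9). Over all peaks these shares were 59.4% and 43.6%. The median score was 9.16 in the 25 peaks with a full site and 6.08 in the 34 without, and the ranges, from 4.38 to 18.1 and from 3.59 to 21.7, overlapped. *Rybp* had a full site in 11 of 13 peaks (84.6%, 57.8 to 95.7), a difference from the 4 genes that was not tested because the peaks of a locus are not replicates.

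Most exact NFI sites in the gene bodies had no peak. The bodies held 7 exact sites at *Xylt1*, 13 at *Nckap5*, 6 at *Hpcal1* and 12 at *Maml3*, of which 1, 2, 0 and 4 lay within 100 bp of a peak centre. Of the 4 at *Maml3*, 1 lay within 100 bp of the centre of a peak assigned to *Mgst2*, just outside the peak itself. On all autosomes, 2148 of 37563 exact sites (5.72%) lay as close to a peak. Per 100 kb of body, exact sites numbered 5.93 at *Hpcal1*, 2.87 at *Maml3*, 2.44 at *Xylt1* and 1.42 at *Nckap5*, against 1.53 on the autosomes.

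Other motifs were searched in the same windows, on both strands and without mismatch. The single NFI arm TTGGCA, which can overlap a full site, was present in 23 of the 59 peaks (39.0%), against 33.6% of all peaks. The E-box of bHLH factors such as PTF1A and MIST1 (CAGATG or CAGCTG) was present in 19 (32.2%), against 32.5%. The GATA motif (GATAAG) was present in 8 (13.6%, 7.03 to 24.5), against 7.75%, and the FOX motif (TATTTAC or TGTTTAC) in 5 (8.47%), against 6.38%. The NR5A2 motif was present in 2 peaks, against 3.65% of all peaks, and these were the *Hpcal1* peak that scored 15.1 and the *Maml3* peak that scored 16.1. The AP-1 motif (TGACTCA or TGAGTCA) was present in 4, 1 at *Xylt1* and 3 at *Nckap5*, against 3.65%. The SP motif (GGGCGG), typical of CpG-rich promoters, was present in 4 (6.78%, 2.67 to 16.2), against 21.1%. Of the 59 peaks, 8 (13.6%) lay on a repeat named in the annotation, against 10.5% of all peaks, and 5 of the 8 were at *Xylt1*. A match to a motif is a description of the sequence and does not show that a factor binds.

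No other gene of the pathways and families of the 4 genes had more than 7 peaks, the lists having been drawn up by family and the 4 genes by their peaks. Only 69 of the 9086 genes with a peak had 8 or more, so few genes of any list would reach that number. That the 4 genes stand above their lists thus follows from how they were chosen. Of all autosomal protein-coding genes, 36.7% had an assigned peak, and the median number was 0. Of 16 other genes of glycosaminoglycan linker and chain synthesis, 8 had a peak. The highest number was 7, at *Ext1*, which codes for a heparan sulfate polymerase, with scores from 3.59 to 13.3. *Extl3* and *Ext2* had 3 peaks each, with highest scores of 11.4 and 5.58. *Xylt2*, the paralog of *Xylt1*, had 1 peak with a score of 5.58. *B4galt7*, *Extl2*, *Csgalnact2* and *Chsy1* also had 1 each, with scores from 4.38 to 7.57. *Csgalnact1*, whose body of 379 kb is longer than that of *Xylt1*, had none.

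Of 12 other neuronal calcium sensor genes, 8 had a peak. *Kcnip4*, a potassium channel-interacting protein gene with a body of 1136 kb, had 5 with scores from 3.78 to 6.57, and *Kcnip1* had 3 with scores from 9.76 to 14.1. *Ncald*, *Ncs1* and *Kcnip3* had 2 each, with highest scores of 7.77, 11.2 and 9.56. *Rcvrn*, *Kcnip2* and *Guca1a* had 1 each, with scores of 11.6, 4.78 and 5.78. *Hpca*, *Hpcal4*, *Vsnl1* and *Guca1b* had none.

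Of 10 other genes of the Notch nuclear complex, 6 had a peak, and none had more than 2. *Maml1* and *Maml2*, the paralogs of *Maml3*, had none, although the body of *Maml2*, at 413 kb, is nearly as long as that of *Maml3*. *Rbpjl*, which codes for the acinar RBPJ-like subunit of the PTF1 complex, had 1 peak with a score of 13.1 at -1379 bp, and *Rbpj* had 1 with a score of 5.38 at -940 bp. *Notch1*, *Notch2* and *Notch3* had 1 each, with scores of 9.56, 6.77 and 4.78, and *Ep300*, which codes for a histone acetyltransferase, had 2 with scores of 4.38 and 6.17. Of 5 other genes of the NCK adaptor group, *Nck2* had 3 peaks with scores from 5.38 to 9.56, *Nck1* had 2 and *Nckap1* had 2, whereas *Nckap5l* and *Nckap1l* had none.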

How the data were processed

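NFIC ChIP-Seq libraries (3) and 1 input library of mouse pancreas are represented by 1 merged peak list. The submitters' notes name BWA, Picard and MACS2, the header names HOMER annotation on mm10, and versions and thresholds are not given in the sources used here. The peak score was deposited by the authors without a stated scale, and the focus ratio was deposited by the authors as a fraction of tags. TSS distances were copied from the list. The list has 0 columns of single libraries.

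Rows naming the 4 genes were taken. Gene models and sequence came from RefSeq of GRCm38, the assembly of mm10, and long non-coding genes also from GENCODE. Motifs were searched in 200 bp windows. No test was run. The 4 genes and the gene lists were chosen with earlier results of these data known. Named genes are the 4, those with at least as many peaks or 1 fewer, except items not reported here, neighbours, genes sharing a body with a peak, and the lists. The motif search was tested on simulated data. Alternatives varied score, merging, assignment, gene body, territory, mismatches and window. Figures were drawn with matplotlib 3.10.9, and values were computed with pandas 2.3.3, numpy 2.4.6 and scipy 1.17.1 under Python 3.11.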

Additional observations from a re-analysis of the deposited data

How the results depend on the processing

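Of 50 values under the alternatives, 41 stayed within 1.5 times the reported value, or for shares within its confidence interval, and 9 moved. When peaks below the median score were left out, *Xylt1* kept 7 peaks, a median spacing of 39.4 kb and 2.44 peaks per 100 kb of body, and *Nckap5* kept 9 peaks, a spacing of 51.0 kb and 0.763 per 100 kb. Per 100 kb of territory, an alternative added once the data had been seen, *Xylt1* had 2.61 peaks. Counting the peaks in the gene body whatever gene was named gave 6 peaks for *Hpcal1*. When mismatches were not allowed, 15.3% of the 59 peaks held an NFI full site, against 13.4% of all peaks. By the nearest TSS of a protein-coding RefSeq transcript, *Hpcal1* had 11 peaks and 19 autosomal genes had more, *Maml3* had 12 and 13 had more, *Nckap5* had 14 and 4 had more, and *Xylt1* had 21 and 0 had more. By the deposited assignment, 3, 3, 1 and 0 autosomal genes had more, in that order. No replicate could be left out, because the list is merged. No paired analysis was possible because the list holds no value of a single library. The unknown depth limits what an absent peak can show.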
